A study of Homo sapiens with 9 samples.

Results

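The PFKFB family and TIGAR were followed across 9 microarrays of OEC-M1 cells, a head and neck squamous cell carcinoma line, under hypoxia. The members are the 5 genes PFKFB1, PFKFB2, PFKFB3, PFKFB4 and TIGAR, taken with every non-control probe whose transcript name maps to 1 of these symbols in RefSeq. They are 5 of the 22439 gene symbols with a probe on the array, and 7 of its 58201 probes. PFKFB2 and PFKFB3 had 2 probes each, and the other 3 genes had 1 probe.

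The study asked how loss of GATA3, a zinc finger transcription factor, and loss of HIF-1α, the oxygen-labile subunit of hypoxia inducible factor 1, alter transcription in hypoxic cells. OEC-M1 cells received non-targeting siRNA (siControl), GATA3 siRNA (siGATA3) or HIF1A siRNA (siHIF1A), were kept at 1% O2 for 18 h and were read 72 h after transfection, with 3 arrays in each group and 1 siRNA per target named in the study's legend for these arrays. All 9 arrays therefore carry siRNA transfection and hypoxia, and no normoxic array was analysed here. The labels do not say that replicates came from separate cultures, so P-values measure the spread between these arrays, which may be technical.

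The 4 PFKFB genes encode bifunctional enzymes with a kinase and a phosphatase domain, which make and break fructose-2,6-bisphosphate. This sugar phosphate is the strongest allosteric activator of phosphofructokinase 1, the committing step of glycolysis, and it restrains fructose-1,6-bisphosphatase, the opposing gluconeogenic enzyme. PFKFB1 is known as the liver and muscle form, PFKFB2 as the heart form, PFKFB3 as an inducible form with a strong bias towards the kinase, and PFKFB4 as the testis form, and PFKFB3 and PFKFB4 are known hypoxia-induced genes in many cancer cells. TIGAR is a related phosphatase whose activity favours the pentose phosphate pathway over glycolysis.

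In the RefSeq annotation of GRCh38.p14, PFKFB1 lies at chrX:54932961-54998789, PFKFB2 at chr1:207034416-207081027, PFKFB3 at chr10:6144921-6326637, PFKFB4 at chr3:48517684-48563136 and TIGAR at chr12:4321213-4360028. The 250 bases before annotated starts are shown for 4 of the 5 genes, because the groups differ in a factor that is known to bind the core letters ACGTG and GCGTG in DNA. Capitals mark ACGTG or GCGTG read on either strand, so that GCGTG on the opposite strand appears as CACGC. The PFKFB3 window at chr10:6202682-6202931 (plus strand) holds CACGTG, which reads ACGTG on both strands, 108 to 103 bases before the start. The PFKFB4 window at chr3:48556804-48557053 (minus strand) holds GCGTG at 166 to 162 bases, the TIGAR window at chr12:4320963-4321212 (plus strand) holds ACGTG at 71 to 67 bases, and the PFKFB1 window at chrX:54998790-54999039 (minus strand) holds neither.
PFKFB3: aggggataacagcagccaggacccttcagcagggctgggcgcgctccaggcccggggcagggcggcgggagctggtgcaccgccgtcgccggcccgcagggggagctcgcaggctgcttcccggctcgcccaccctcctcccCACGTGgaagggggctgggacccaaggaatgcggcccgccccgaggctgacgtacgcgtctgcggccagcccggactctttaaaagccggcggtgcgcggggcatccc
PFKFB4: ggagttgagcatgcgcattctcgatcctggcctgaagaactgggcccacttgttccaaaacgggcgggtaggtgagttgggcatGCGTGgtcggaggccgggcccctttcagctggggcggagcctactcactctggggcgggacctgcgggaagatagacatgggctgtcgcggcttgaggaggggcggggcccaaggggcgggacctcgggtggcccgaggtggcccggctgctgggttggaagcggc
TIGAR: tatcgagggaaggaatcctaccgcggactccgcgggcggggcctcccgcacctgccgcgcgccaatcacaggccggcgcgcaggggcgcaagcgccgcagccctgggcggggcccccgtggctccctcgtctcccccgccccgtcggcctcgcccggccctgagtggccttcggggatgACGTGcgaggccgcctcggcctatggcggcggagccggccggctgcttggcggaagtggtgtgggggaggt
PFKFB1: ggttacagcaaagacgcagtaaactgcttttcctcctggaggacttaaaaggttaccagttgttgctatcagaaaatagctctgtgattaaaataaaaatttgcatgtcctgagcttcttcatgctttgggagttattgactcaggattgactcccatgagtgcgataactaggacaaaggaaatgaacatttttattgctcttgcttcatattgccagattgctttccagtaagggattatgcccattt

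The promoter windows used here include a further start for both PFKFB3 and PFKFB1, and 1 start each for PFKFB4 and TIGAR. The annotated span of PFKFB4 reaches upstream beyond its window, to chr3:48563136, and bases before that end were not searched. The other PFKFB3 window, chr10:6144671-6144920, holds 1 GCGTG on the opposite strand, and the other PFKFB1 window, chrX:54994189-54994438, holds neither core. The letters are common: of 35116 promoter windows of this length, 18.5% hold ACGTG, 32.2% hold GCGTG and 43.2% hold at least 1 of them on either strand. GATAA, 1 form of the letters that GATA factors read, was found in the printed PFKFB3 and PFKFB1 windows and in 20.4% of all windows. None of the other 4 member windows held it. Other forms, such as the GATAG in the printed PFKFB4 window, were not searched for, and the base before the letters was not considered. These matches describe letters in a window and do not show binding, and PFKFB2 had no entry in the promoter table.

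Each array gave an intensity per probe, reported here as normalized log2 intensity, so that a difference of 1 is a 2-fold change. The raw median intensity of the arrays ran from 992.5 to 3560, the share of probes well above background from 74.3% to 88.5%, and 0 spots were saturated. HIF1A was 16.72 ± 0.47 in siControl (SD, n = 3), 16.68 ± 0.57 in siGATA3 and 14.40 ± 0.24 in siHIF1A, and GATA3 was 11.10 ± 0.39, 9.84 ± 0.49 and 10.73 ± 0.41 in the same order. Both targeted genes were thus lowest in the arrays labelled with their own siRNA, with log2 differences from siControl of -2.31 (SE 0.35) for HIF1A and -1.26 (SE 0.34) for GATA3. Their adjusted P in limma, over all probes, was 0.301 for HIF1A and 0.9999 for GATA3, so neither was under 0.05. Of 10 squamous epithelial markers, 8 were well above background on all 9 arrays, KRT6A on 8 and KRT5 on 0. Of 10 fibroblast, leukocyte and endothelial markers, COL3A1 was well above background on 0 arrays, DCN on 7, CD14 on 8 and the other 7 on all 9. Since the arrays are of a carcinoma line, a probe well above background does not by itself show that its gene was expressed. A replicate number marks a slide that holds 1 array of each group, and each group kept the same position on every slide, so position on the slide and group cannot be told apart.

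PFKFB1, PFKFB3 and PFKFB4 were lower after HIF-1α knockdown, and PFKFB2 and TIGAR passed no test. In RNA from whole cultures, fewer expressing cells and less RNA per cell cannot be told apart. Called here means an unadjusted P under 0.05 in limma, the threshold of the study's methods. Of the 7 probes 4 were called lower and 0 higher, beside a background of 3.41% of all 57741 tested probes called lower and 1.91% called higher. The same 4 probes were those whose siHIF1A arrays did not overlap the siControl arrays, beside 8.04% of 49806 probes with a value on all 6 arrays whose siHIF1A arrays all lay below siControl. After Benjamini-Hochberg adjustment over all probes no member was called in this comparison, and neither were nearly all other probes, with 0.00173% called. The split of calls over the whole array depended on scaling, since lower calls made up 64.1% of calls here and 48.1% when processed signals were scaled to the 75th percentile.

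**Figure D1:**
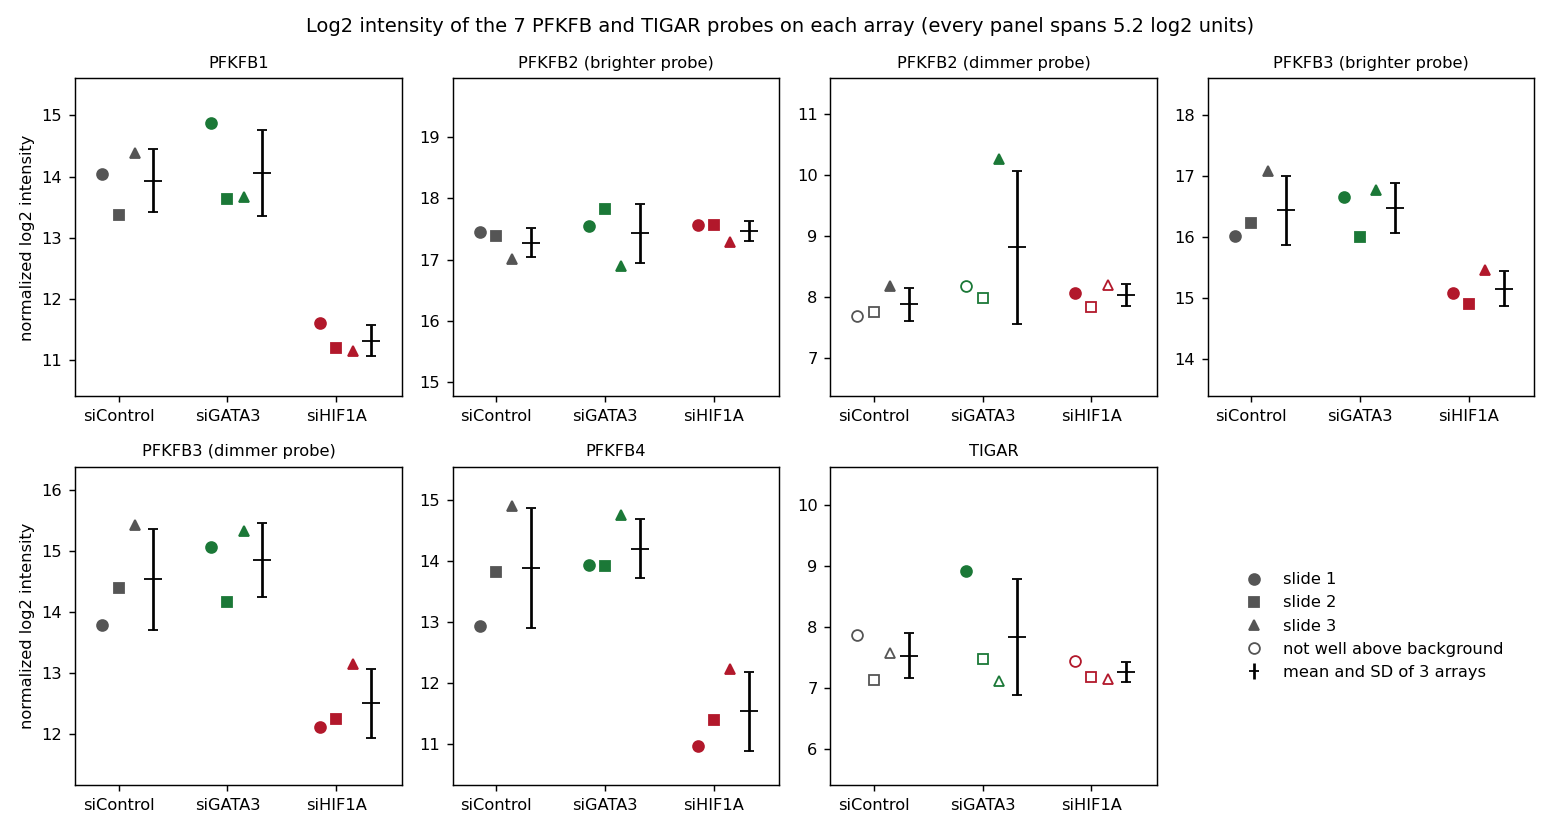
Normalized log2 intensity of each of the 7 probes (vertical axis) on every array, grouped by siRNA, with the slide as symbol shape, open symbols for spots not well above background, and a bar for the mean and SD of 3 arrays. Each panel has its own axis range of equal span. The siHIF1A arrays sit below every siControl and siGATA3 array for PFKFB1, both PFKFB3 probes and PFKFB4, and the groups overlap for PFKFB2 and TIGAR.

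PFKFB3, the inducible kinase-biased form, was read by 2 probes to the same transcript. Its brighter probe gave 16.01, 16.22 and 17.07 in siControl, 16.65, 16.00 and 16.77 in siGATA3, and 15.08, 14.91 and 15.46 in siHIF1A. The siHIF1A arrays were all below the lowest array of either other group, while siControl and siGATA3 overlapped. HIF-1α knockdown lowered this probe by 1.28 (SE 0.34, 95% CI -2.04 to -0.53) on the log2 scale, which is 2.43-fold, with an adjusted P of 0.703 in limma.

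The dimmer PFKFB3 probe gave 13.79, 14.39 and 15.42 in siControl, 15.06, 14.16 and 15.32 in siGATA3, and 12.12, 12.25 and 13.14 in siHIF1A. Its groups separated in the same way, with a difference of -2.03 (SE 0.47, 95% CI -3.08 to -0.98), or 4.09-fold, and an adjusted P of 0.565 in limma. On slides 1, 2 and 3 the brighter probe differed by -0.93, -1.31 and -1.61 and the dimmer probe by -1.67, -2.14 and -2.28. The dimmer probe thus fell further than the brighter one on every slide, by 0.75, 0.83 and 0.66 on the log2 scale. Both probes name 1 transcript and their sequences were not used here, so the size of the PFKFB3 change depends on the probe while its direction does not.

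PFKFB4, the testis form that is also known as hypoxia-induced, gave 12.93, 13.82 and 14.89 in siControl, 13.93, 13.91 and 14.76 in siGATA3, and 10.98, 11.40 and 12.24 in siHIF1A. Slide 3 was the highest of its group in all 3 groups, and the siHIF1A arrays did not overlap the others. HIF-1α knockdown lowered PFKFB4 by 2.34 (SE 0.50, 95% CI -3.47 to -1.22) on the log2 scale, or 5.08-fold, with an adjusted P of 0.498 in limma. On slides 1, 2 and 3 the difference was -1.96, -2.42 and -2.65, a narrower spread than that of the arrays within siControl. With the slide as a replicate block the SE was 0.27 and the adjusted P in limma was 0.0423. Adjusted P with this block was a setting chosen after seeing the data. It called 12 probes over the array in this comparison, and PFKFB4 was the only member probe among them.

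PFKFB1, the liver and muscle form, had the largest difference of the 7 probes. It gave 14.03, 13.37 and 14.38 in siControl, 14.87, 13.64 and 13.67 in siGATA3, and 11.60, 11.20 and 11.14 in siHIF1A. All 9 arrays were well above background, and the gap between the highest siHIF1A array and the lowest array of the other groups was wider than the spread within siHIF1A. HIF-1α knockdown lowered PFKFB1 by 2.62 (SE 0.39, 95% CI -3.48 to -1.76) on the log2 scale, or 6.14-fold, with an adjusted P of 0.301 in limma. On slides 1, 2 and 3 it differed by -2.43, -2.17 and -3.24. With the slide as a replicate block the adjusted P in limma was 0.06, in the same setting chosen after seeing the data. By P-value this probe ranked 8 among the 57741 tested. Only 1 probe reads PFKFB1, so its value was not checked on a further probe.

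PFKFB2, the heart form, showed no difference larger than the spread between arrays. Its brighter probe gave 17.45, 17.38 and 17.01 in siControl, 17.55, 17.83 and 16.90 in siGATA3, and 17.56, 17.56 and 17.29 in siHIF1A. All 3 groups overlapped. The siHIF1A difference was 0.19 (SE 0.28, 95% CI -0.44 to 0.82) and took the opposite sign, at -0.13, when processed signals were scaled to the 75th percentile. The interval leaves room for a change of either sign.

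The other PFKFB2 probe, to a different transcript of the gene, was dim, being well above background on 1 of 3 arrays in each group. It gave 7.69, 7.76 and 8.19 in siControl, 8.18, 7.99 and 10.26 in siGATA3, and 8.06, 7.84 and 8.20 in siHIF1A. One siGATA3 array, replicate 3, stood apart from the other 8. The siGATA3 difference of 0.93 (SE 0.51, 95% CI -0.21 to 2.07) was not called. On slides 1, 2 and 3 it was 0.49, 0.23 and 2.07, and with the slide as a replicate block it was called at unadjusted P, with an adjusted P of 0.899 in limma.

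TIGAR was not well above background on any siControl or siHIF1A array, and was so on 1 of 3 siGATA3 arrays. It gave 7.87, 7.13 and 7.57 in siControl, 8.91, 7.48 and 7.11 in siGATA3, and 7.44, 7.18 and 7.14 in siHIF1A. The groups overlapped, and only siGATA3 replicate 1 was above the rest. No difference of TIGAR was called in any of the 3 comparisons. Nearly all its spots were near background, and the size of its difference depended on the processing. Between siGATA3 and siControl it was 0.31 here and 1.59 when processed signals were scaled to the 75th percentile, not called in either.

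GATA3 knockdown moved none of the 7 probes past the threshold without a block for the slide, and 1 of them, the dimmer PFKFB2 probe, with it. Without the block the background was 3.11% of 58161 tested probes called in either direction. After adjustment it was 0%, with a smallest adjusted P of 0.181 in limma. Over the whole array 1811 probes were called without the block and 3190 with it. Leaving out siGATA3 replicate 2 also gave 1 called member probe, beside 1008 probes called lower and 1813 higher over the array. The differences against siControl were 0.13 for PFKFB1 (95% CI -0.73 to 0.99), 0.04 for the brighter PFKFB3 probe (95% CI -0.72 to 0.80), 0.31 for the dimmer one and 0.32 for PFKFB4 (95% CI -0.80 to 1.44). Each interval is wide enough to hold a change of more than 0.7 in either direction, so a missed threshold does not show equal levels. Within slides the signs were mixed for every probe but the dimmer PFKFB2 one, with PFKFB1 at 0.84, 0.27 and -0.71 and PFKFB4 at 1.00, 0.09 and -0.14 on slides 1, 2 and 3. Slide 1 gave the highest siGATA3 difference for 5 of the 7 probes.

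**Figure D2:**
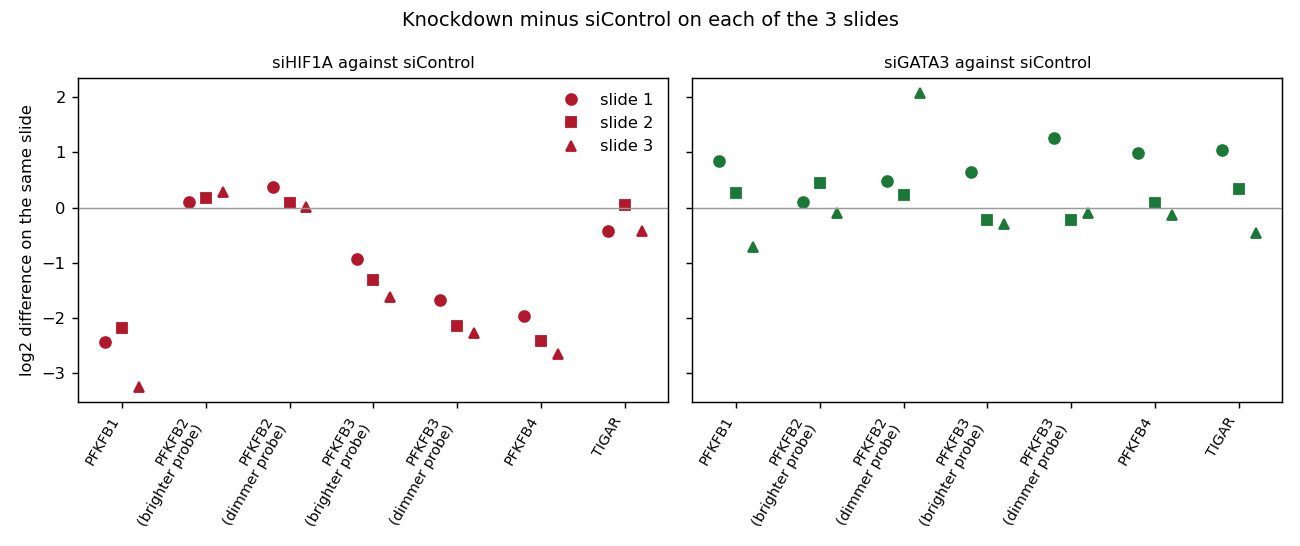
Log2 difference of each knockdown array from the siControl array on the same slide (vertical axis) for the 7 probes, siHIF1A on the left and siGATA3 on the right, with the slide as symbol shape. On the left PFKFB1, both PFKFB3 probes and PFKFB4 lie below 0 on all 3 slides, from -0.93 to -3.24, and on the right the same 4 probes lie on both sides of 0.

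The difference between the knockdowns was tested directly, because both share the siControl arrays in the comparisons above. PFKFB1 was higher in siGATA3 than in siHIF1A by 2.75 (SE 0.39, 95% CI 1.89 to 3.61), PFKFB4 by 2.66 (SE 0.50, 95% CI 1.54 to 3.78), and PFKFB3 by 1.32 (SE 0.34) and 2.34 (SE 0.47) on its brighter and dimmer probe. These 4 of 7 probes were called higher and 0 lower, beside 7.4% of 57728 tested probes called higher, 4.86% called lower and 0.00693% called after adjustment. Their adjusted P in limma was 0.119, 0.162, 0.276 and 0.181, so that no member was called after adjustment. With the slide as a replicate block the adjusted P in limma was 0.0235 for PFKFB1 and 0.0235 for PFKFB4. For PFKFB3 it was 0.078 on the brighter probe and 0.0355 on the dimmer one. This setting was chosen after seeing the data and called 147 probes higher and 13 lower over the array. PFKFB2 differed by -0.04 (95% CI -0.67 to 0.59) on its brighter probe, with a sign that turned to 0.31 when processed signals were scaled to the 75th percentile.

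**Figure D3:**
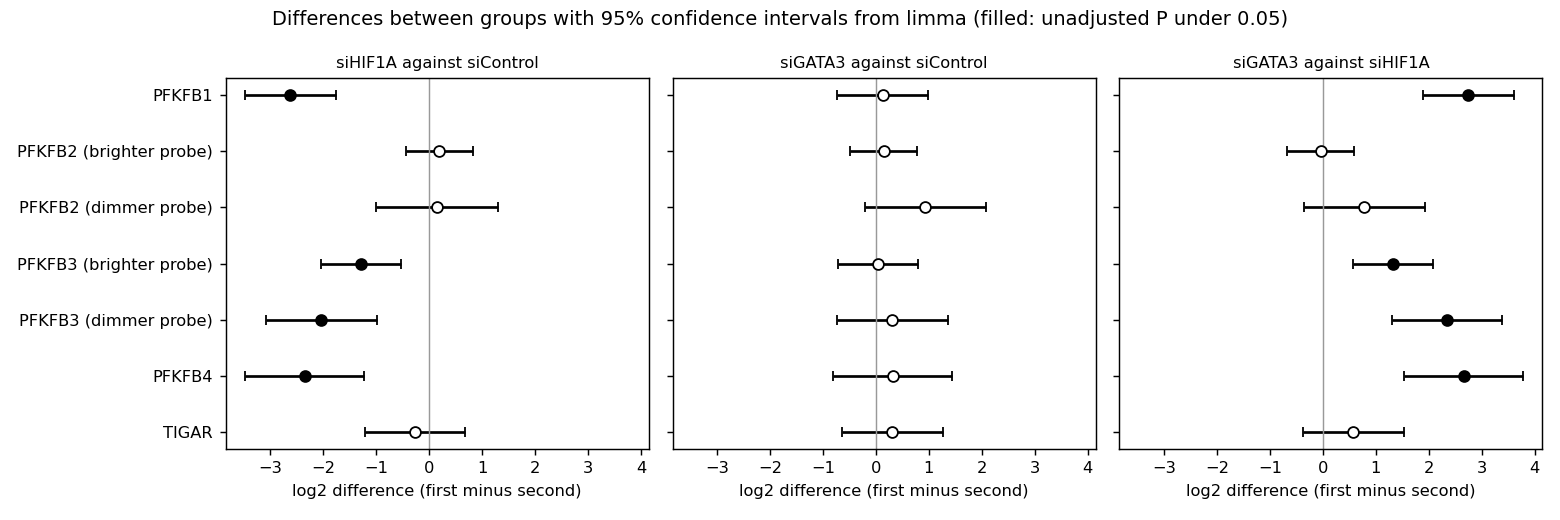
Log2 difference (horizontal axis, first group minus second) with its 95% confidence interval from limma for the 7 probes in the 3 comparisons, filled where the unadjusted P was under 0.05. PFKFB1, both PFKFB3 probes and PFKFB4 are filled in both comparisons that include siHIF1A, and no probe is filled in the comparison of siGATA3 with siControl.

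The order of the group means was therefore alike for PFKFB1, PFKFB3 and PFKFB4. siGATA3 and siControl came first and did not differ beyond their spread, and siHIF1A followed below both. For the brighter PFKFB2 probe and TIGAR no neighbouring groups differed beyond their spread. Over the 9 arrays the level of PFKFB3 followed that of PFKFB4 with a Pearson r of 0.96, and PFKFB1 followed PFKFB3 with r = 0.88 and PFKFB4 with r = 0.83. The other 7 pairs of members lay between -0.55 and 0.61. These correlations include the difference between groups and are given as descriptions.

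Among 17997 other genes, the profile closest to PFKFB3 was ENO2, an enolase of glycolysis, with r = 0.996 over 9 arrays, and CRB2 (0.985) was also among the 3 closest. PFKFB4 was closest to SLC6A8, the creatine transporter, with r = 0.990, then CFAP96 (0.988) and CIAO2B (0.988). PFKFB1 was closest to HOXC13, a homeobox transcription factor, with r = 0.992, then ERI3-IT1 (0.990) and FHIP1B (0.986). PFKFB2 had lower maxima, CELA3B at 0.932, LGI4 at 0.929 and KRTAP19-4 at 0.919. TIGAR was closest to MS4A10 (0.965), LUCAT1 (0.952) and PLPPR4 (0.946), which follow a profile that was mostly not well above background.

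The enzymes that the family acts on were measured beside it. Fructose-2,6-bisphosphate acts on the phosphofructokinase 1 subunits PFKL, PFKM and PFKP and on the fructose-1,6-bisphosphatases FBP1 and FBP2, and 0 of these 5 were called in either knockdown against siControl, beside 5.73% of all gene symbols called after HIF-1α knockdown and 3.76% after GATA3 knockdown. After HIF-1α knockdown PFKL differed by -0.51 (SE 0.33), PFKM by -0.38 (SE 0.39) and PFKP by -0.34 (SE 0.29). PFKP was the only one called between the knockdowns, higher in siGATA3 by 0.65 (SE 0.29). Over all gene symbols 8.71% were called higher and 4.86% lower in that comparison, so a count of 1 of 5 does not set the list apart.

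Of 24 glycolysis enzymes 23 were matched to a probe. After HIF-1α knockdown 8 of the 23 were called lower and 0 higher, with a list median of -0.33, beside 3.83% lower, 1.90% higher and a median of -0.04 over 22290 gene symbols. The 8 were the hexokinases HK1 (-1.0) and HK2 (-1.48), GPI (-1.08), the aldolase ALDOC (-1.83), TPI1 (-0.77), PGK1 (-0.98), PGAM1 (-0.73) and ENO2 (-2.49). The PFKFB1 and PFKFB4 differences of -2.62 and -2.34 lay near that of ENO2, and the brighter PFKFB3 probe at -1.28 fell within their range. After GATA3 knockdown the list median was 0.02. Only PGAM1 was called, at -0.52 (SE 0.23) on its brighter probe and -0.98 on its dimmer one. That 4.35% of the list is near the 3.76% called over all gene symbols, whose median was also 0.02.

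**Figure D4:**
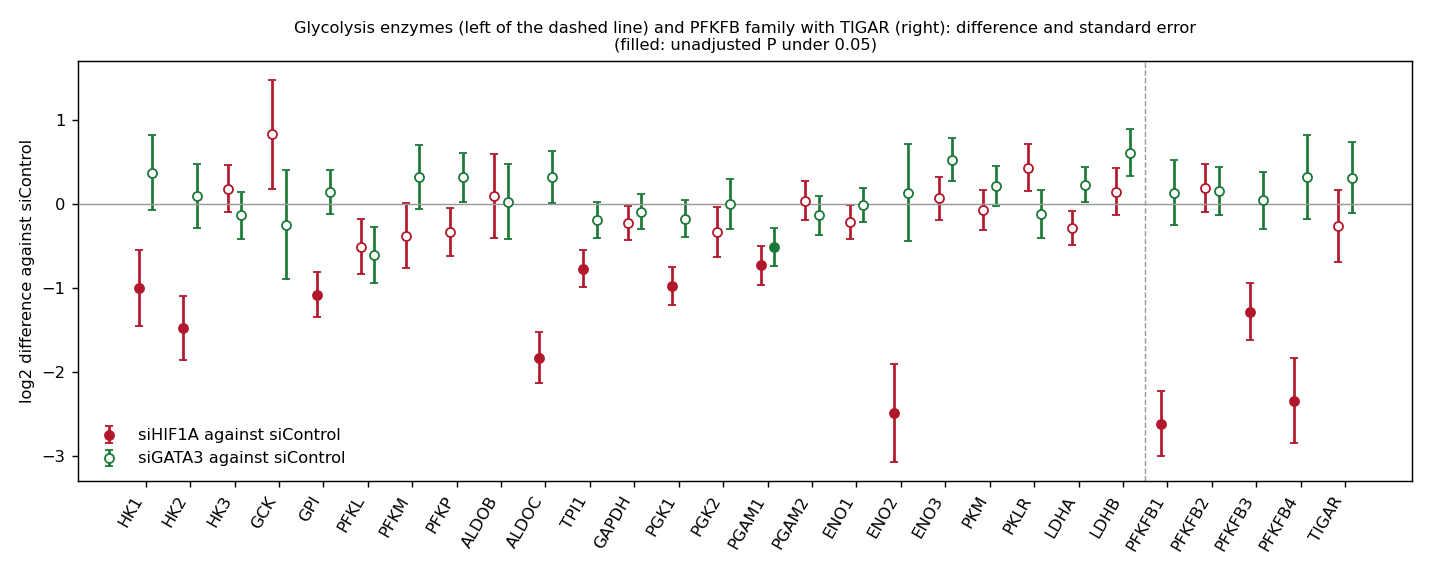
Log2 difference from siControl with its standard error (vertical axis) for 23 glycolysis enzymes, left of the dashed line, and for the brightest probe of the 5 members, right of it, in both knockdowns, which share their siControl arrays. Filled points had an unadjusted P under 0.05. After HIF-1α knockdown 8 enzymes and 3 members are filled below 0, and after GATA3 knockdown PGAM1 is the only filled point.

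The pentose phosphate pathway, which TIGAR activity favours, had 1 of 8 genes called after HIF-1α knockdown, the epimerase RPE at -1.05 (SE 0.35), and 0 of 8 after GATA3 knockdown, with medians of -0.11 and -0.34. Over all gene symbols 5.73% were called in either direction after HIF-1α knockdown and 3.76% after GATA3 knockdown, so counts this small do not set the list apart. Of 17 kinase subunits, ubiquitin ligase subunits and transcription factors known to act on the family, 1 was called after HIF-1α knockdown, the AMPK subunit gene PRKAB2 at -0.90 (SE 0.37), and 0 after GATA3 knockdown. That 5.88% of the list is near the background of 5.73%.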

How the data were processed

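Per the labels and the study's methods, RNA was labelled as cDNA with a single dye and hybridised to Agilent 8 × 60K arrays, and intensities were extracted by the authors with Agilent Feature Extraction (version 10.5.1.1 in the submitters' processing notes). The deposited scanner files hold intensity per spot with background and flags. The deposited table of log2 values equals log2 processed signal less a constant per array for 99.5% of probes within 0.001, with column medians from -2.40 to -2.07, and served as an alternative.

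Median intensities were corrected by normexp with an offset of 50, spots marked non-uniform were set to missing, quantile normalization was applied between arrays, and spots of 1 probe were averaged with controls removed. The study's methods name the removal of non-uniform spots, background correction, quantile normalization and limma, and the normexp method, its offset and the averaging were chosen here. All probes were fitted in limma (version 3.58.1, R 4.3.3) with 9 arrays in 1 model and moderated by eBayes. P-values were two-sided, with Benjamini-Hochberg adjustment over all tested probes. The brightest probe stands for a gene in lists, and genes were named by RefSeq accession. The script was tested on simulated data. The members and lists were chosen with earlier results of these data known. Named genes are the members, both targeted genes, list genes called in either knockdown and the 3 genes most correlated with each member, among those well above background on at least 3 arrays. Members of the fructose-1,6-bisphosphate step were named beyond that rule, and 1 gene under it is not reported here. Alternatives were other background corrections, scalings, filters, probe rules, variance models, a replicate block and leaving out each array. The number of arrays limits the precision.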

Additional observations from a re-analysis of the deposited data

How the results depend on the processing

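PFKFB1, PFKFB3 and PFKFB4 kept their direction in both comparisons that include siHIF1A under every alternative run. The 4 member probes stayed called at unadjusted P in all 9 fits that left out 1 array. The sizes moved. With all arrays kept, siHIF1A against siControl ran from -2.66 to -2.48 for PFKFB1, -1.66 to -0.92 for PFKFB3 and -2.37 to -1.73 for PFKFB4. The smallest change of each came with array brightness as a covariate. With adjusted P, -2.62, -1.28 and -2.34 (siHIF1A against siControl) and 2.75, 1.32 and 2.66 (siGATA3 against siHIF1A) for PFKFB1, PFKFB3 and PFKFB4 were no longer called, leaving 0 member probes in either comparison, and all-probe calls were 1, 0 and 4 in siHIF1A against siControl, siGATA3 against siControl and siGATA3 against siHIF1A. With the replicate block, all-probe calls were 5031, 3190 and 11193, against 3070, 1811 and 7078 without it, and 1 member probe, the dimmer PFKFB2 probe, was called in siGATA3 against siControl. The replicate block with adjusted P, chosen after seeing the data, called 12, 0 and 160 probes, 1 member probe in siHIF1A against siControl, and not PFKFB1 (-2.62) or PFKFB3 (-1.28) there, nor PFKFB3 (1.32) between the knockdowns. Same-numbered arrays of siControl and siGATA3 deviated together (r = 0.23, 0.58 and 0.72), and those of siControl and siHIF1A less evenly (0.62, 0.11 and 0.087). Those of siGATA3 and siHIF1A did not on slide 2 (0.35, -0.19 and 0.12). Between arrays of different numbers r ran from -0.68 to 0.47. The highest was siControl replicate 1 with siGATA3 replicate 2, above the 0.23 of siControl replicate 1 with siGATA3 replicate 1. PFKFB2 changed sign in siHIF1A against siControl with the 75th percentile of processed signals (-0.13), that percentile after normexp (-0.18), the authors' table (-0.13) and array brightness as a covariate (-0.037), and between the knockdowns under the same 4 (0.31, 0.33, 0.29 and 0.20) and the mean of its probes (0.37). The percentile scaling after normexp moved the median of all probes to -0.11 in siHIF1A against siControl and 0.18 between the knockdowns, from -0.02 and 0.02. Lower calls between the knockdowns were 39.7% of calls, 28.6% under that scaling and 50.2% in the authors' table, and in siGATA3 against siControl 43.5%, 28.2% and 23.0%. All-probe calls in siGATA3 against siControl were 4021 with processed signals, 3824 in the authors' table, 6296 with array brightness and 1190 in separate fits. Array brightness gave 4866 in siHIF1A against siControl, and separate fits gave 10657 between the knockdowns. Leaving out 1 array, siGATA3 against siControl ran from -0.27 to 0.36 for PFKFB1, -0.053 to 0.41 for PFKFB2, -0.17 to 0.36 for PFKFB3, -0.16 to 0.82 for PFKFB4 and -0.23 to 0.67 for TIGAR, with 0 to 1 member probes called (1 without siGATA3 replicate 2). PFKFB2 between the knockdowns ran from -0.24 to 0.22. All-probe calls ran from 1775 (without siHIF1A replicate 1) to 6110 (without siControl replicate 1) in siHIF1A against siControl, where 1900 were called without siHIF1A replicate 3. They ran from 1213 (without siControl replicate 2) to 7537 (without siControl replicate 3) in siGATA3 against siControl, with 2821 without siGATA3 replicate 2. Between the knockdowns they ran from 3363 (without siGATA3 replicate 3) to 11800 (without siGATA3 replicate 2), with 11587 without siControl replicate 3, 4143 without siGATA3 replicate 1, and 3795 and 3814 without siHIF1A replicates 1 and 3. The cause was not tested. Signal over background limits TIGAR and the dimmer PFKFB2 probe.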
